A study of Homo sapiens with 6 samples.

Results

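Eph receptors form the largest family of receptor tyrosine kinases, and their ligands, the ephrins, are bound to the surface of neighbouring cells. A-type ephrins are held by a lipid (GPI) anchor and B-type ephrins cross the membrane, so contact between cells can signal forward through the receptor and in reverse through the ligand. In the epithelium of the gut these pairs are known for keeping cell populations apart and in place. The genes described here are 8 members of this family, the 5 receptor genes EPHA2, EPHA4, EPHB2, EPHB3 and EPHB4 and the 3 ligand genes EFNA1, EFNB1 and EFNB2. They were taken by gene symbol, and each had 1 row among the 17318 genes measured in every library.

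RNA came from SNU216, an established human gastric cancer cell line, 48 h after transfection of an siRNA. The control group (siControl) received a control siRNA and the other group (siOXTR) an siRNA against OXTR, the oxytocin receptor gene, with 3 libraries in each. The series title concerns the interplay of that receptor with the co-activator YAP. All libraries came from this 1 line. Neither the siRNAs used nor the origin of the 3 libraries of a group (separate cultures or not) is described, and each p-value therefore reflects how far these libraries scatter, which may be technical.

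Levels are given in FPKM, fragment counts corrected for transcript length and library size, so that different genes can be ranked. OXTR itself was at 38.87 to 39.37 FPKM in siControl and 4.65 to 5.34 FPKM in siOXTR. Of 6 epithelial marker genes (EPCAM, KRT8, KRT18, KRT19, KRT7 and CDH1) all were detected in every library, between 6.93 and 3224 FPKM, although EPCAM (280.41 to 310.91 against 136.34 to 149.83 FPKM) and CDH1 (73.32 to 79.70 against 19.80 to 20.27 FPKM) were lower in siOXTR. KRT18 (2027.90 to 2276.64 against 2383.69 to 2513.09 FPKM) and KRT19 (1494.86 to 1893.96 against 1998.92 to 2090.04 FPKM) had every siOXTR library above every control, KRT8 and KRT7 overlapped, and the epithelial sum was 6578 to 7630 FPKM in siControl against 7717 to 7874 FPKM. The 5 fibroblast markers measured summed to 1.62 to 2.02 FPKM in siControl and 0.610 to 0.810 FPKM in siOXTR, and the 6 blood and endothelial markers to 1.89 to 2.70 and 2.23 to 3.30 FPKM. No single gene of these other cell types exceeded 1.67 FPKM in any library, and their part in the results was not tested. In such bulk RNA, fewer cells that express a gene and less of its RNA per cell cannot be told apart.

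Of the 8 members, 7 were tested and all 7 were lower in siOXTR (limma on log2(FPKM + 1), adjusted p under 0.05), whereas 17.6% of the 11550 tested genes were called lower and 42.2% higher. EPHB2 fell most, to 33.3% of its control level, and EFNA1 least, to 80.1%. EPHB3 was near 0 in both groups and was not tested. The 3 siOXTR libraries lay below all 3 siControl libraries for each of the 7, as they did for 19.2% of tested genes. EFNB1 reached the minimum for testing, a mean of 1 FPKM over the 6 libraries, only through its siControl values, so its call follows in part from that minimum. The other 6 tested members were at or above 1 FPKM in every library.

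The members lie on 6 chromosomes, with coordinates from GENCODE 29 on GRCh38. EPHA2 spans chr1:16124337-16156087 on the minus strand and EPHB2 chr1:22710839-22921500 on the plus strand. EFNA1 is on the other arm, at chr1:155127460-155134857. EPHA4 is at chr2:221418027-221574202, EPHB3 at chr3:184561784-184582409, EPHB4 at chr7:100802565-100827521, EFNB2 at chr13:106489731-106535662 and EFNB1 at chrX:68828997-68842147. The 5' end of EPHB4 overlaps that of SLC12A9, a transporter gene on the opposite strand. Strand use in counting is not given, so fragments from that overlap cannot be assigned. SLC12A9 itself went from 14.5 ± 1.13 to 8.24 ± 0.652 FPKM (SD, n = 3 each).

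Promoter windows of 300 bases, 250 before and 50 after the annotated start, were available in RefSeq for all 8 members (10 windows, GRCh38.p14). Those of EPHA2, EPHB2 and EFNA1 are shown because EPHB2 and EFNA1 had the largest and the smallest fall and EPHA2 is the only member with a TEAD core. TEAD proteins are the DNA-binding partners of YAP. Capitals mark exact matches, on either strand, to the TEAD core GGAATG, to the TCF/LEF core CTTTGA bound by Wnt effectors, or to the GC box GGGCGG. The sequences read 5′ to 3′ on the strand of the gene, for EPHA2 at chr1:16156020-16156319 (minus), for EPHB2 at chr1:22710588-22710887 (plus) and for EFNA1 at chr1:155127626-155127925 (plus).
EPHA2: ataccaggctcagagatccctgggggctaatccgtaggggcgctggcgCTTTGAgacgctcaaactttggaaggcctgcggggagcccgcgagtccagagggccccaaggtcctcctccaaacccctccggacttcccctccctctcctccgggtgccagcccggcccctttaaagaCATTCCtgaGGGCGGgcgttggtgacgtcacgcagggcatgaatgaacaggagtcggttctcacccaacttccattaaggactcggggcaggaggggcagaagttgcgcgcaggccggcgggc
EPHB2: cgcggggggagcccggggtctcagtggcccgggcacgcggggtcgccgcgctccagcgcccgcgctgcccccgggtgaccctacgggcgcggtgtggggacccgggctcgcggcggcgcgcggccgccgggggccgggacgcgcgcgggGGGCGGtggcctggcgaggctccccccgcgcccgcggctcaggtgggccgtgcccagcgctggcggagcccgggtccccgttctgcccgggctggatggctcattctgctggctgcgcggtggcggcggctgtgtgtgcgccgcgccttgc
EFNA1: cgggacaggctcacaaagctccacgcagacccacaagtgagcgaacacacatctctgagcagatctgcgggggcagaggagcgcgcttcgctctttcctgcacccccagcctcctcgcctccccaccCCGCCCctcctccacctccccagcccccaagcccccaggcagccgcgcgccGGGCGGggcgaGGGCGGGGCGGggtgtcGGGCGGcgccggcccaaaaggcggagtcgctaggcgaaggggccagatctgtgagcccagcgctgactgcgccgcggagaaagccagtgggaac
The EPHA2 window holds 1 TEAD core on the minus strand of the gene, 1 TCF/LEF core and 1 GC box. The EPHB2 window holds 1 GC box, none of the other motifs searched, and 49 CG dinucleotides against a median of 14 over all 35116 windows in the table. The EFNA1 window holds 5 GC boxes, of which 1 pair shares a base. Among all windows 14.03% hold a TEAD core, 12.9% a TCF/LEF core and 45.0% a GC box. The hypoxia response core ACGTG, present in 21.4% of all windows, occurred in the EPHB3 window and in 1 of the 2 EPHA4 windows. The AP-1 motif TGANTCA, present in 7.71% of windows, occurred in none of the members' windows. A match describes letters in these windows only.

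EPHB2 is the receptor that sorts cells along the crypt in the gut, where the Wnt pathway is known to induce it. It was at 33.77, 35.42 and 30.81 FPKM in the siControl libraries and at 11.17, 10.56 and 11.56 FPKM in the siOXTR libraries. All siOXTR values were close to each other and far below the lowest control. The ratio of means was 3.00-fold, and the log2 fold change was -1.50 (SE 0.064, 95% interval -1.64 to -1.36, adjusted p = 2.46e-09, limma). Ordered from the most negative fold change, EPHB2 stood at position 52 of 11550 tested genes.

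EPHB4 is the receptor known for its pairing with ephrin-B2 at the border of arteries and veins, and is also made by many carcinomas. It was at 34.29, 38.05 and 34.22 FPKM in siControl and at 22.24, 21.33 and 21.11 FPKM in siOXTR. The groups were separated, and the fall of 1.65-fold had a log2 fold change of -0.69 (SE 0.058, 95% interval -0.82 to -0.57, adjusted p = 1.03e-06, limma). EPHB2 and EPHB4 were therefore at overlapping levels in siControl but not in siOXTR.

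EPHB3, the closest partner of EPHB2 in the gut, was at 0.04, 0.13 and 0.10 FPKM in siControl and at 0.04, 0.08 and 0.05 FPKM in siOXTR. The groups overlapped, and values this low with 2 decimals allow no statement on a difference. EPHB1 was at 0 in 5 libraries and at 0.02 FPKM in 1 siOXTR library.

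EPHA2, a receptor of epithelial and carcinoma cells whose main ligand is ephrin-A1, was at 24.03, 26.89 and 25.14 FPKM in siControl and at 16.24, 15.72 and 15.39 FPKM in siOXTR. Every siOXTR library was lower than every control, with a 1.61-fold fall in the means (log2 fold change -0.65, SE 0.058, 95% interval -0.78 to -0.52, adjusted p = 1.93e-06, limma). EPHA4, which binds ephrins of both types, was far less abundant, at 3.74, 3.19 and 3.21 FPKM in siControl and 1.81, 1.72 and 1.87 FPKM in siOXTR. Its groups did not overlap either (1.88-fold, log2 fold change -0.64, SE 0.077, adjusted p = 2.49e-05, limma). The added 1 FPKM makes the EPHA4 log2 fold change smaller than its ratio of means implies.

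EFNA1, the ligand of EPHA2 and the most abundant member, was at 44.25, 46.58 and 44.86 FPKM in siControl and at 35.64, 36.15 and 36.85 FPKM in siOXTR. Its fall was small in size, 1.25-fold, but the groups were well apart (log2 fold change -0.31, SE 0.050, 95% interval -0.42 to -0.20, adjusted p = 0.000256, limma). EFNB2, the ligand of EPHB4, was at 6.12, 5.06 and 5.69 FPKM in siControl and at 2.93, 2.87 and 2.64 FPKM in siOXTR. It was lower in all 3 siOXTR libraries, 2.00-fold in the means (log2 fold change -0.79, SE 0.076, 95% interval -0.96 to -0.63, adjusted p = 3.53e-06, limma). EFNB1, a ligand of the EphB receptors, was at 1.48, 1.62 and 1.31 FPKM in siControl and at 0.75, 0.52 and 0.66 FPKM in siOXTR (2.28-fold in the means, log2 fold change -0.59, SE 0.090, adjusted p = 0.000183, limma). All siOXTR values of EFNB1 were under 1 FPKM.

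**Figure D1:**
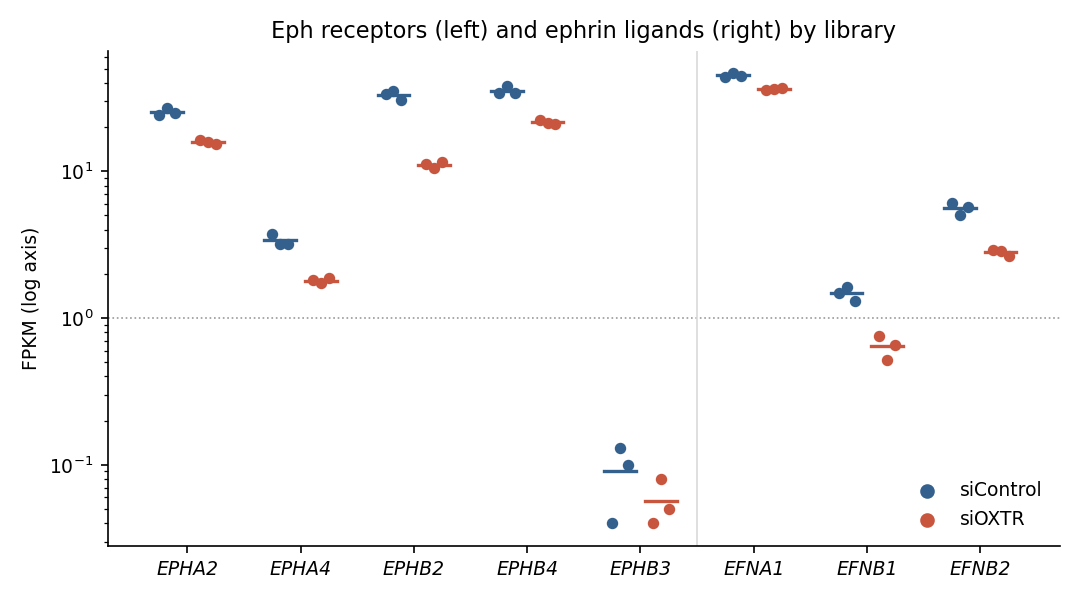
FPKM (log axis) of the 8 members in each library, with siControl in blue and siOXTR in red, the short bar at the group mean and the dotted line at 1 FPKM. The groups are apart for every gene except EPHB3, which lies between 0.04 and 0.13 FPKM.

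The order of the members changed at 1 place. In siControl it ran EFNA1, EPHB4, EPHB2, EPHA2, EFNB2, EPHA4, EFNB1 and EPHB3 from high to low, and EPHB4 and EPHB2 were the only neighbours whose libraries overlapped. In siOXTR, EPHA2 (15.8 ± 0.429 FPKM) stood above EPHB2 (11.1 ± 0.504 FPKM), with no overlap between any neighbours. In siControl EPHB2 (33.3 ± 2.34 FPKM) had been above EPHA2 (25.4 ± 1.44 FPKM), also without overlap.

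Ratios of 2 members within a library do not depend on how the library was scaled. They were computed for 6 pairs, since the other 2 pairs planned involve EPHB3. EPHB2 per EPHB4 was 0.985, 0.931 and 0.900 in the siControl libraries and 0.502, 0.495 and 0.548 in the siOXTR libraries, a difference of -0.87 on the log2 scale (exact permutation test, two-sided, p = 0.1, adjusted p = 0.2 over the 6 pairs). The libraries did not overlap, but 3 against 3 can give no p below 0.1. EPHA2 per EFNA1, a receptor and its ligand, went from 0.543, 0.577 and 0.560 to 0.456, 0.435 and 0.418 (log2 difference -0.36, exact permutation p = 0.1, adjusted p = 0.2). EPHB2 per EFNB1 was 22.8, 21.9 and 23.5 in siControl and 14.9, 20.3 and 17.5 in siOXTR (log2 difference -0.38, exact permutation p = 0.1, adjusted p = 0.2). With 1 FPKM added to each value that difference was -0.92. In these 3 ratios every siOXTR library was below every control library.

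The other 3 ratios overlapped between groups. EPHB4 per EFNB2 lay between 5.60 and 7.52 in siControl and between 7.43 and 7.996 in siOXTR (log2 difference 0.28, exact permutation p = 0.2, adjusted p = 0.24), and the difference was 0.10 with 1 FPKM added. EPHA2 per EPHA4 had a log2 difference of 0.22 (exact permutation p = 0.2, adjusted p = 0.24) and EFNB1 per EFNB2 one of -0.21 (exact permutation p = 0.6, adjusted p = 0.6). The sign of both of these turned when 1 FPKM was added before the ratio (-0.0064 and 0.21), so no direction is given for them.

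The rest of the family was measured as well, in all 14 receptor and 8 ligand genes. Of the 14 genes that are not members 6 were tested, and 5 of them were lower in siOXTR. Over all tested genes 17.6% were called lower. Among tested genes whose protein was predicted to hold a signal or membrane segment, a class with 5 of these 6, it was 43.9%. EPHB6, a receptor whose kinase domain is inactive, was at 19.16, 22.84 and 18.63 FPKM in siControl and at 10.97, 9.71 and 9.27 FPKM in siOXTR (log2 fold change -0.95, adjusted p = 1.38e-06, limma). EPHA1 went from 11.8 ± 0.822 to 6.89 ± 0.523 FPKM (log2 fold change -0.70, adjusted p = 6.41e-06, limma). Both receptors had all siOXTR libraries below all controls, as did 19.2% of tested genes. EPHA1 overlaps ZYX, the gene of the adhesion protein zyxin on the opposite strand, whose log2 fold change was -0.32, so fragments from that overlap are uncertain too.

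Among the A-type ligands, EFNA3 had the largest fall, from 10.36, 11.62 and 8.11 FPKM to 4.77, 4.45 and 3.85 FPKM (log2 fold change -1.03, adjusted p = 8.91e-06, limma). EFNA5 went from 12.1 ± 1.10 to 6.55 ± 0.342 FPKM (log2 fold change -0.79) and EFNA4 from 16.4 ± 1.41 to 12.3 ± 0.435 FPKM (log2 fold change -0.38), with adjusted p of 2.09e-06 and 0.000474 (limma). EFNA3 and EFNA4 lie next to each other and share an annotated readthrough transcript model, so their separate values are uncertain to the extent that fragments fell on it.

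EPHA10, another receptor with an inactive kinase domain, was at 3.96, 4.02 and 3.27 FPKM in siControl and at 3.38, 3.27 and 3.13 FPKM in siOXTR. Its groups overlapped and it did not pass the threshold (log2 fold change -0.15, 95% interval -0.32 to 0.017, adjusted p = 0.109, limma). It passed without siControl replicate 3 (-0.23, adjusted p = 0.0214, limma) and after TMM scaling, which rescales libraries to a common trimmed mean (-0.25, adjusted p = 0.0209, limma). The 9 family genes that were not tested, EPHB3 among them, did not exceed 0.70 FPKM in any library.

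**Figure D2:**
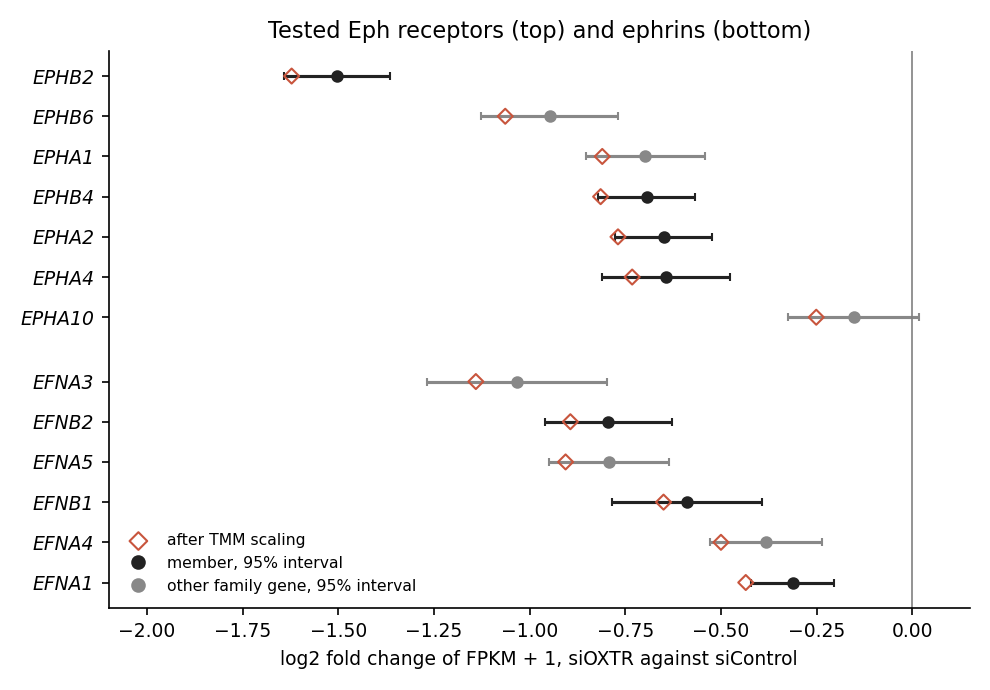
Log2 fold change of FPKM + 1, siOXTR against siControl, of the 13 tested family genes with 95% intervals from limma (black for members, grey for other family genes), and open diamonds for the value after TMM scaling. EPHB2 at -1.50 is farthest from 0 and EPHA10 at -0.15 is the only gene whose interval reaches 0.

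Under TMM scaling the median over all 11550 genes dropped by 0.11 on the log2 scale, from 0.13 to 0.016. After it, 24.2% of tested genes were called lower and 19.8% higher. The same 7 members were lower on that scale, from -1.62 for EPHB2 (adjusted p = 6.75e-10, limma) to -0.44 for EFNA1 (adjusted p = 1.52e-05, limma).

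Summed over the 14 receptor genes, FPKM lay between 128 and 144 in siControl and between 69.0 and 73.8 in siOXTR, 52.7% of the control mean. Summed over the 8 ligand genes it lay between 89.0 and 94.5 in siControl and between 62.4 and 63.7 in siOXTR, or 69.2%. EPHB2 made up 24.1% to 25.7% of the receptor sum in siControl and 15.1% to 16.8% in siOXTR. EPHB4 made up a larger share in siOXTR, from between 26.1% and 26.7% to between 30.1% and 30.6%, and EPHA2 from between 18.3% and 19.6% to between 22.0% and 22.5%, although the FPKM of both was lower. EFNA1 made up 49.3% to 50.3% of the ligand sum in siControl and 56.8% to 59.0% in siOXTR. These shares are descriptions with no test.

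**Figure D3:**
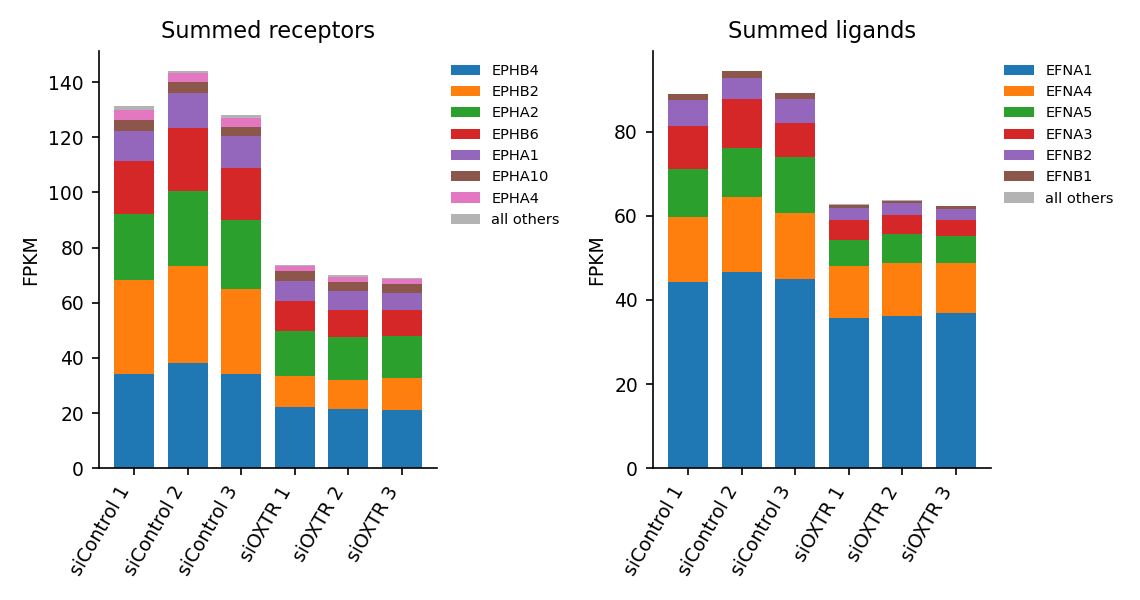
FPKM of the Eph receptor genes (left) and ephrin genes (right) stacked within each library, with the most abundant genes named and the rest in grey. The receptor stacks are lower in siOXTR, and the EPHB2 layer shrinks more than those of EPHB4 and EPHA2.

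All 8 members encode surface proteins with a predicted signal or membrane segment, and the background for genes with such a segment differed from that of all genes. That class is wider than surface proteins, since it also holds RHOA and KRTCAP2. Of 3536 tested genes whose protein was predicted to hold a signal or membrane segment 43.9% were called lower and 22.6% higher, against 6.05% and 50.9% of 7934 genes with no predicted segment. The median log2 fold change was -0.10 in the first class and 0.17 in the second. Within the first class EPHB2 stood at position 50 of 3536 from the most negative, EFNB2 at position 458, EPHB4 at 598, EPHA2 at 664, EPHA4 at 674, EFNB1 at 759 and EFNA1 at 1254. A fold change of -1 or lower was found in 2.34% of all tested genes, and among the members EPHB2 reached it. With 0.1 FPKM added in place of 1, EFNB1 was at -1.09.

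**Figure D4:**
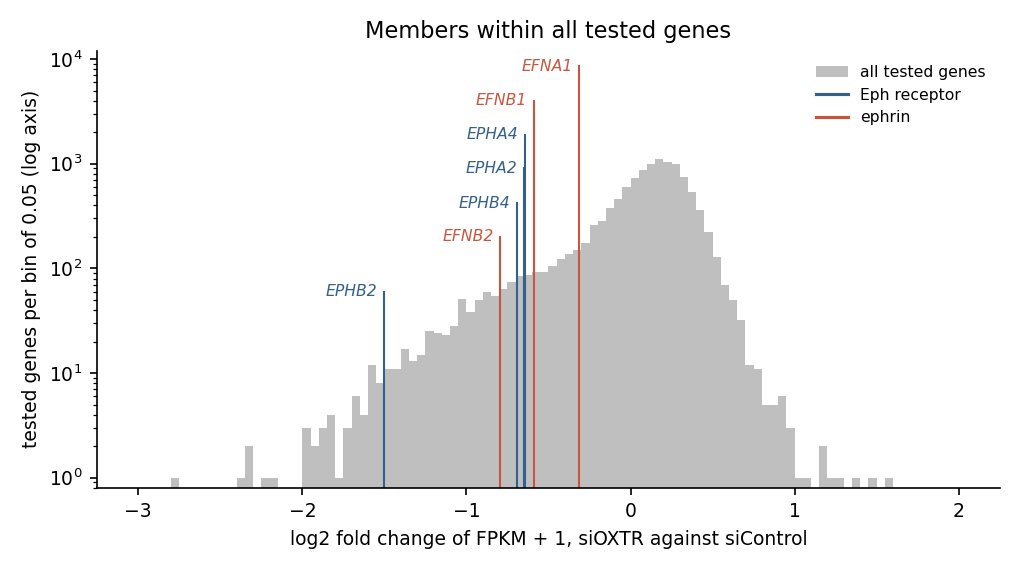
Number of tested genes (log axis) by log2 fold change of FPKM + 1 in bins of 0.05, with vertical lines at the 7 tested members. EPHB2 lies in the lower tail at -1.50, and the other members between -0.79 and -0.31, below the median of all genes at 0.13.

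Other receptor tyrosine kinases moved in the same direction. Of 44 listed genes outside the Eph family 20 were tested, of which 18 were lower and none higher, with a median log2 fold change of -0.75. INSR, among the 18, reached the minimum for testing only through its siControl values (2.10 ± 0.126 against 0.91 ± 0.026 FPKM). Its call follows in part from that minimum. All 20 were in the class with a predicted segment, in which 43.9% of tested genes were lower and 22.6% higher. The median of the 7 tested members was -0.65 and that of the 6 other tested family genes -0.75. The lowest kinase genes were AXL (96.4 ± 2.95 to 35.7 ± 1.46 FPKM, log2 fold change -1.41), MET (104 ± 3.98 to 39.1 ± 0.909 FPKM, -1.39), EGFR (-1.03) and PTK7 (-1.01). None of these 20 genes was as low as EPHB2, and no test was made of that difference.

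Eph receptors and ephrins are shed from the surface by proteases, and genes of these were mostly lower. Of 12 listed genes 10 were tested, 8 of them lower and none higher (median log2 fold change -0.53). MMP9, among the 8, reached the minimum for testing only through its siControl values (1.66 ± 0.180 against 0.857 ± 0.177 FPKM). Its call follows in part from that minimum. All 10 were in the class with a predicted signal or membrane segment, in which 43.9% of tested genes were lower and 22.6% higher. MMP14, a membrane-bound metalloprotease that can cut EphA2, went from 29.5 ± 0.780 to 9.75 ± 0.436 FPKM (log2 fold change -1.51). ADAM10, the main ephrin sheddase, went from 97.8 ± 5.90 to 36.5 ± 0.731 FPKM (-1.40), and ADAM17 from 19.8 ± 1.36 to 11.01 ± 0.378 FPKM (-0.79). NCSTN, a subunit of the gamma-secretase that cuts the remaining stubs, had a log2 fold change of -1.09. The gamma-secretase subunit genes APH1A and PSENEN, at -0.12 and 0.03, did not pass the threshold, though APH1A did after TMM scaling (-0.25, adjusted p = 0.00251, limma).

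Of 45 genes listed as effectors and adaptors of Eph receptors and ephrins 39 were tested, with 8 lower and 14 higher (median 0.052), and 14 lower and 4 higher after TMM scaling. Of the 39, 34 had no predicted signal or membrane segment, with 6 lower and 11 higher as deposited and a median of 0.042. Among all tested genes of that class 6.05% were lower and 50.9% higher, with a median of 0.17. Over all tested genes 17.6% were lower and 42.2% higher as deposited and the median was 0.13, and scaling moved those calls in the same way (24.2% and 19.8%). The largest change was that of PTPRF, itself a membrane protein, a phosphatase known to act on EphA2, from 66.4 ± 7.84 to 24.4 ± 1.51 FPKM (log2 fold change -1.40, adjusted p = 2.78e-08, limma). SDCBP, the PDZ protein syntenin that binds the tails of B-type ephrins, went from 76.6 ± 3.36 to 54.7 ± 3.08 FPKM (-0.48), and FYN, a Src family kinase, from 6.06 ± 0.142 to 4.07 ± 0.196 FPKM (-0.48). The adaptor gene SHC1 was higher (0.33, and 0.22 after TMM scaling). RHOA, the GTPase through which Eph receptors retract the cell edge, was called higher as deposited (0.20) and was not called after TMM scaling (0.07, adjusted p = 0.309, limma).

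Of 12 genes listed as Wnt regulators of EPHB genes 8 were tested, with 3 lower and 1 higher, and their log2 fold changes lay between -0.31 and 0.20. All 8 had no predicted signal or membrane segment, a class in which 6.05% of tested genes were lower and 50.9% higher. LGR5, a Wnt target and stem cell marker of the gut, was too low to be tested, at 0.43, 0.34 and 0.37 FPKM in siControl and 0.10, 0.11 and 0.15 FPKM in siOXTR, with no overlap. Such separation, with siOXTR lower, was seen for 19.2% of tested genes. Also untested were AXIN2 (0.39 to 0.55 against 0.34 to 0.47 FPKM) and RNF43 (0.12 to 0.26 against 0.19 to 0.38 FPKM), which overlapped. LEF1 did not exceed 0.03 FPKM. Values of these untested genes are too low for a statement on a difference. CTNNB1, which encodes beta-catenin, was called higher as deposited (99.8 ± 3.95 to 115 ± 5.41 FPKM, log2 fold change 0.20) and not after TMM scaling (0.07, adjusted p = 0.295, limma). TCF7L1, TCF7 and MYC were lower, at -0.31, -0.18 and -0.16.

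**Figure D5:**
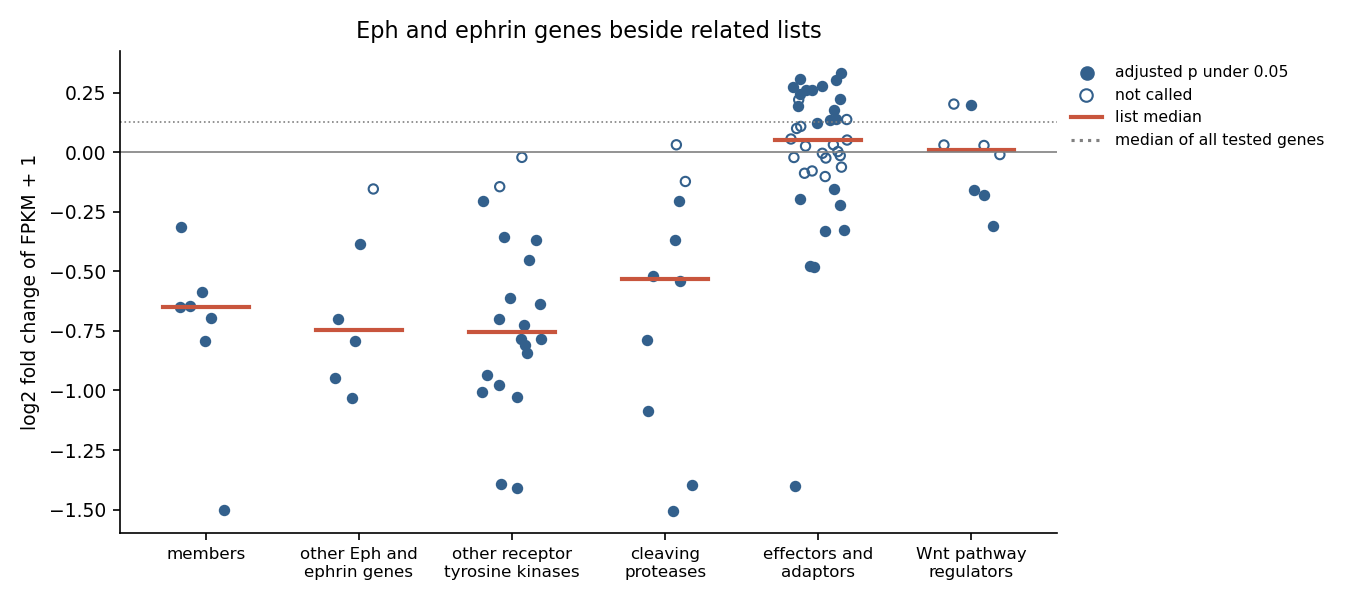
Log2 fold change of FPKM + 1 of each tested gene (filled points passed the threshold, open points did not) in the members and 5 related lists, with list medians in red and the median of all tested genes dotted. The members, the other family genes, the other receptor tyrosine kinases and the proteases have medians from -0.75 to -0.53, and the effector and Wnt lists have medians of 0.052 and 0.0099.

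Genes whose pattern over the 6 libraries was nearest to that of EPHB2 were sought among 9016 genes outside the family with a mean of at least 5 FPKM. They were MMP14, GALNT2, a glycosyltransferase gene of the Golgi, and CLSTN1, which encodes the membrane protein calsyntenin 1, at root mean square distances of 0.036, 0.038 and 0.038 on the log2 scale. For EFNB2 they were NCEH1, PTPRG and DSC2, at 0.030, 0.031 and 0.039. With 2 groups of 3 libraries such a distance mostly reflects a fold change of equal size.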

How the data were processed

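RNA of 6 SNU216 libraries was sequenced after a BGISEQ-500 library protocol, per the labels' protocols. The deposited values are FPKM per gene and library, made by the authors and named so per the file headers, with GRCh38.p13 named in the submitters' processing notes. Aligner, quantifier, annotation and filters: not given in the sources. FPKM values summed to between 417829 and 434167 in the siControl libraries and between 446246 and 459595 in the siOXTR libraries. Every siOXTR sum was thus above every siControl sum. Depth is unknown, since low values searched for whole-fragment steps reached a coherence of at most 0.219 of a possible 1. The test was limma 3.58.1 (R 4.3.3) applied to log2(FPKM + 1) of every gene averaging 1 FPKM or more (group as the only term, trend and robust prior, two-sided), with Benjamini-Hochberg adjustment over 11550 genes and a threshold of 0.05. The fit was tested on simulated data. Folds are ratios of mean FPKM, and ± is the SD of 3 libraries.

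The members and gene lists were chosen with earlier results of these data known. The text names all members, tested family genes, up to 4 called genes per list with the largest change, and the 3 nearest genes to EPHB2 and EFNB2. The cell type markers were planned only as a check of the labelled epithelial line. Single epithelial markers were compared between groups after their values were seen. Other genes (SLC12A9, ZYX, EPHB1, OXTR, LGR5, AXIN2, RNF43, LEF1, APH1A, PSENEN, RHOA, MMP9, INSR) were added after their values were seen. So were the chromosomal neighbours ADAM15, MUC1, SLC50A1, DPM3, KRTCAP2, THBS3, MTX1, ZBTB7B, KDM1A and ARGLU1. Membrane and signal segments were predicted from the longest coding sequence in GENCODE 29 (a 9-residue window in the first 35 residues averaging 2.2 or more on the Kyte-Doolittle scale, or any 19-residue window averaging 1.7 or more), a class first defined after these data had been seen, which misses EFNA4. TMM scaling was computed on FPKM with trims of 0.3 and 0.05, without the precision weights that counts would give. No protein table was at hand, so these translations replaced the one planned. Ratio p-values were adjusted over the 6 pairs with values, not the 8 planned.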

Additional observations from a re-analysis of the deposited data

How the results depend on the processing

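The 7 members called lower kept that direction and call under each of the 10 to 13 alternatives that tested them, with adjusted p of at most 0.00212 (limma). With a minimum mean of 5 FPKM, 4 members were tested and all 4 were lower, while 1604 of all genes were lower and 4199 higher. EFNB1 fell under the minimum of 1 FPKM without siControl replicate 1 or 2, leaving 6 members lower. Of all genes, 1900 were lower without replicate 1 and 1943 without replicate 2. Across all tested genes, 4869 were higher as deposited, 2282 after TMM scaling and 2285 after median-of-ratios scaling. With 1 FPKM added, the log2 differences of EPHA2 per EPHA4 and EFNB1 per EFNB2 became -0.0064 and 0.21. With the replicate block, 7 members were lower, as were 2105 of all genes, with 5100 higher. Deviations of same-numbered libraries correlated at 0.107, 0.0042 and 0.16, so the numbers were not taken as pairs. In the ratio of EPHB2 to EPHB4 the block gave the same difference of -0.87 (exact sign-flip permutation p = 0.25, the smallest that 3 pairs allow). Depth is unknown, so no limit of detection is given for EPHB3 and other genes near 0. With 1 FPKM added, EPHB2 per EFNB1 differed by -0.92 and EPHB4 per EFNB2 by 0.10, and with 0.1 FPKM in place of 1 the log2 fold change of EFNB1 was -1.09.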

Other observations

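The A-type ephrin genes EFNA4, EFNA3 and EFNA1 lie in a row on chromosome 1, and the neighbourhood was looked at after their values were seen. Within 100 kb of EFNA1 the files hold 13 other genes, of which 5 were lower, 2 higher, 4 tested but not called and 2 not tested. Next to EFNA4, at a distance of 956 bases, ADAM15, which encodes a membrane metalloprotease, went from 63.4 ± 4.53 to 38.3 ± 2.78 FPKM (log2 fold change -0.71). MUC1, the gene of a membrane mucin, went from 11.4 ± 1.46 to 3.55 ± 0.138 FPKM (-1.44). SLC50A1, a sugar transporter gene 487 bases from EFNA1, averaged 63.7 ± 3.18 FPKM in the control libraries against 68.9 ± 1.40 FPKM after OXTR knockdown, short of the threshold (adjusted p = 0.0886, limma). DPM3 and KRTCAP2, which encode small membrane proteins of the endoplasmic reticulum, were at -0.0023 and 0.058 on the log2 scale, also short of it. THBS3 and MTX1 were called higher as deposited (0.19 and 0.27) and not after TMM scaling (0.076 and 0.15). The tested genes within 100 kb of EFNA1 thus had log2 fold changes from -1.44 to 0.27. Farther out, but within 100 kb of EFNA4, ZBTB7B (0.43) and SHC1 (0.33) were called higher, also after TMM scaling (0.32 and 0.22).

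Beside the other members, KDM1A, a nuclear histone demethylase gene 97943 bases from EPHB2, was at 80.5 ± 0.640 and 90.4 ± 0.514 FPKM, called higher as deposited (0.16) and not after TMM scaling (0.040). ARGLU1, 6011 bases from EFNB2, was higher on both scales (25.4 ± 1.11 to 33.8 ± 1.12 FPKM, log2 fold change 0.40 as deposited and 0.28 after TMM scaling). Within 100 kb of EPHB4, as deposited, 1 gene was lower (SLC12A9, -0.75), 1 higher, 2 tested but not called and 4 not tested. Within 100 kb of EPHA2, 3 genes were tested but not called and 2 were not tested. No test was made of whether neighbours move together.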
